A study of Saccharomyces cerevisiae with 6 samples.

Results

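The RNAs described here came from 58 yeast genes for which all 3 tested versions of the mRNA leader fell on the same side of a 2-fold mark between ribosome-bound and untranslated RNA. The leader is the stretch from the cap to the start codon. The pool held 6962 RNAs from 4134 loci, and 561 loci had exactly 3 RNAs. A locus was taken when the mean log2(FPKM + 1) of the 80S libraries minus that of the untranslated libraries was 1 or more for all 3 of its RNAs, or -1 or less for all 3. FPKM is the deposited abundance, scaled by RNA length and library total. The members were thus selected on this difference between fractions, which gave 33 loci that were higher in 80S (99 RNAs) and 25 that were lower in 80S (75 RNAs), together 10.3% of the loci with 3 RNAs. When each library was rescaled by median ratios, which lowered the median log2 difference of the pool from 0.18 to 0.03, these counts became 20 and 35, so the split between the directions depended on the scaling.

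The RNAs were transcribed by T7 RNA polymerase from a synthetic pool based on yeast sequencing, capped, and incubated in a translation extract of Saccharomyces cerevisiae. A sucrose gradient then separated RNA bound to an 80S ribosome (3 libraries) from untranslated RNA (2 libraries). The starting pool was sequenced as 1 input library. RNA of both fractions was recovered by phenol/chloroform extraction and a biotin pulldown, whereas the input label names the extraction alone, so this step cannot be told apart from a difference between a fraction and the input. All groups came from the 1 RNA pool, and both fractions from the yeast extract. Whether each replicate had its own extract and gradient is unstated, so errors and p-values measure the spread between libraries, which may be technical. The FPKM of a library summed to between 24779700 and 28542200, but reads per library are unknown.

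In the usual course of initiation in yeast, the cap-binding complex loads a 43S preinitiation complex near the 5′ end. That complex scans the leader to a start codon, where the 60S subunit joins to give an 80S ribosome. A start codon within the leader can divert scanning ribosomes, stable folds can slow them, and the bases just before the start codon, A at position -3 above all, affect how well it is recognised.

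The 3 leaders of a gene were nested: they ended at the same start codon and differed in where they began. The sequences shown first are therefore the bases that the 3 leaders of a locus had in common, for the loci with the largest mean difference in either direction. Each line gives up to 20 leader bases followed by the start codon in capitals. They were read 5′ to 3′ on the coding strand of the RefSeq R64 assembly, placed by locus name and leader length. BET5, TUB4 and ZDS2 have shorter lines because the shortest leader itself was shorter than 20 nt.
YNR048W: cttagatttttttgtgcaatATG
YDR415C: caaccgctgattagcacaatATG
BET5: ataaatcagtggagcATG
TUB4: aacatataactatctATG
YPS7: atttgccgttgatttttgctATG
ATP3: cattattttatttagtagtcATG
ZDS2: aaattagaattttATG
DIN7: aacattattattcgataggaATG
The 8 above were higher in 80S, and the 8 that follow were lower.
OCA1: agcttctctttccccttagaATG
YBR287W: ttactctgcatttctactatATG
ARO7: gcataaaattggtataagatATG
ATO3: aaataaaaatactggttaaaATG
MED2: aaactgcccgtctgaaagtaATG
TCM62: tctcttatgctttaacgagtATG
TAT2: attacgcaacacactctcatATG
CMP2: tacttcttcttgaacccgcaATG
In R64 the longest leader of YNR048W lay at chrXIV:711563-711629 on the plus strand, that of YDR415C at chrIV:1298162-1298216 on the minus strand, and that of BET5 at chrXIII:111800-111864 on the plus strand. Among the lower loci, the longest leader of OCA1 lay at chrXIV:439284-439350 on the minus strand, that of YBR287W at chrII:776494-776570 on the plus strand, and that of ARO7 at chrXVI:675632-675706 on the minus strand. These stretches lie directly 5′ of the annotated coding sequence of their gene. None of the 174 member leaders overlapped another annotated coding sequence. None shared a run of 20 bases with a leader of another locus, a check that leaders shorter than 20 nt could not fail. The higher loci were spread over 12 chromosomes (15 on the plus and 18 on the minus strand), and the lower loci over 11 (15 plus and 10 minus).

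The difference between fractions chose these loci, so its values are given as a description with no test. A log2 difference is the mean log2(FPKM + 1) of the 3 80S libraries minus that of the 2 untranslated libraries, with the standard error from limma's fit across the pool. In the whole pool 27.5% of RNAs stood at 1 or more and 23.7% at -1 or less. The 99 RNAs of the higher loci ran from 1.01 to 3.50 with a median of 1.81, and the 75 RNAs of the lower loci from -4.15 to -1.03 with a median of -1.89. The 3 80S libraries and the 2 untranslated libraries did not overlap for 98 of the 99 higher RNAs and 74 of the 75 lower RNAs, against 79.5% of the pool. The RNAs whose libraries overlapped were the 19 nt leader of ENT4, an epsin-like protein, at 648, 169.7 and 428 FPKM in 80S and 191 and 99.8 in the untranslated fraction, and the 57 nt leader of NET1.

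The largest mean among the higher loci was that of YNR048W, a putative regulatory subunit of an aminophospholipid translocase. Its 27 nt leader was measured at 3558, 3149 and 3103 FPKM in the 80S libraries and at 2252 and 770.3 in the untranslated libraries, with 634 in the input. The 55 nt leader had 5296, 5055 and 3789.6 FPKM in 80S, 572 and 326 untranslated and 283 in the input. For the 67 nt leader the values were 5158, 4173 and 4522 in 80S, 558 and 302 untranslated and 555 in the input. The 80S libraries were high and close together for all 3 leaders, while the untranslated level was low for the longer leaders and uneven for the short one. The log2 differences were 1.31 ± 0.40, 3.43 ± 0.29 and 3.48 ± 0.28 for the 27, 55 and 67 nt leaders. For the 27 nt leader the difference was 2.08 without untranslated replicate 1 and 0.54 without untranslated replicate 2, so its place past the mark rested on the latter library.

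YDR415C, a putative aminopeptidase, came next. Its 28 nt leader had 4971, 3826 and 5519 FPKM in 80S and 662 and 263 untranslated. The 44 nt leader had 6173, 6093 and 4919 in 80S and 736 and 1181 untranslated, and the 55 nt leader 5585, 4782 and 4857 in 80S and 1066 and 1369.9 untranslated. The ranges of the 80S libraries overlapped among the 3 leaders, and the untranslated level was lowest for the shortest one. The log2 differences fell with length, at 3.50 ± 0.37, 2.61 ± 0.24 and 2.07 ± 0.19 for the 28, 44 and 55 nt leaders. The value of the 28 nt leader was 4.16 without untranslated replicate 1 and 2.83 without untranslated replicate 2.

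BET5, a core subunit of the TRAPP complexes of vesicle transport, went the opposite way with length. Its 15 nt leader had 1671, 2165 and 1484 FPKM in 80S against 395 and 610.3 untranslated. The 46 nt leader had 872, 952 and 1234 in 80S against 199 and 225, and the 65 nt leader 8158, 11080.4 and 10391 against 918 and 979. All 80S libraries stood above both untranslated libraries for each leader. The log2 differences rose, at 1.83 ± 0.27, 2.24 ± 0.25 and 3.37 ± 0.19 for the 15, 46 and 65 nt leaders. TUB4 encodes gamma-tubulin, which nucleates microtubules at the spindle pole body. Its 15 nt leader was at 1854, 1774 and 2392 FPKM in 80S and 449 and 431 untranslated. The 35 nt leader was at 1196, 1149 and 1495 in 80S against 217 and 154, and the 53 nt leader at 4186, 3159 and 3576 against 668 and 708. TUB4 was the most even of the 4 loci named so far, with log2 differences of 2.18 ± 0.22, 2.79 ± 0.25 and 2.39 ± 0.20 for the 15, 35 and 53 nt leaders.

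The other 4 of the 8 largest means among the higher loci are given as mean ± SD FPKM over 3 80S and 2 untranslated libraries. YPS7 encodes a putative aspartic protease of the yapsin family, whose members act at the cell surface. Its 69 nt leader had 5469 ± 1681 in 80S and 2582 ± 1126 untranslated, and its 94 nt leader 5683 ± 1131 and 624 ± 81.4. The 105 nt leader had 6554 ± 1488 and 829 ± 403. The 80S levels of YPS7 lay within 1 SD of each other, and the 69 nt leader differed from the longer ones by its higher untranslated level. This gave log2 differences of 1.11 ± 0.32, 3.17 ± 0.22 and 3.05 ± 0.32 for the 69, 94 and 105 nt leaders. The value of the 69 nt leader fell short of the mark without untranslated replicate 2 (0.65) and without 80S replicate 3 (0.87). ATP3, the gamma subunit of the mitochondrial F1F0 ATP synthase, had log2 differences of 1.60 ± 0.19, 2.60 ± 0.25 and 2.58 ± 0.21 for the 36, 70 and 87 nt leaders, with 9956 ± 1823 FPKM in 80S and 3239.5 ± 144 untranslated for the shortest. ZDS2, a protein with a role in polarized growth, had a leader of 13 nt, the shortest length in the pool, and its log2 differences were 2.38 ± 0.23, 2.51 ± 0.25 and 1.87 ± 0.24 for the 13, 54 and 83 nt leaders. The 13 nt leader of ZDS2 was at 2389 ± 242 FPKM in 80S and 462 ± 108 untranslated. DIN7, a mitochondrial nuclease, had log2 differences of 2.96 ± 0.21, 1.30 ± 0.19 and 2.39 ± 0.24 for the 38, 77 and 99 nt leaders, so the middle leader was the lowest of the 3.

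By the products they encode, the remaining higher loci fell into several groups, named here with the mean of their 3 log2 differences. Mitochondrial proteins included the cytochrome c oxidase copper factors COA6 (2.02) and SCO1 (1.63), the prohibitin PHB1 (1.84), the ribosomal protein MRPS16 (1.82) and the import motor subunit PAM16 (1.80). PUT2 of proline breakdown (1.72), the ATP synthase subunit ATP17 (1.33) and FMP23 (1.12) were also mitochondrial. Among proteins of the secretory pathway and cell wall were ENT4 (2.02), the exomer subunit BCH2 (2.01), the mannosidase MNS1 (1.98), KNH1 of beta-glucan synthesis (1.79) and EMC10 of the endoplasmic reticulum membrane complex (1.79). SGM1 of the Golgi (1.53), mannose-6-phosphate isomerase PMI40 (1.34), the vacuolar ATPase subunit VMA2 (1.59) and ZEO1 of the cell integrity pathway (1.57) are listed with them. Nuclear and gene expression factors were ARP7 of SWI/SNF and RSC (2.09), IES2 of INO80 (1.64), the RNA polymerase III subunit RPC82 (1.39), the transcriptional activator ARO80 (1.77), the tRNA deaminase subunit TAD3 (2.09) and CAF20 (1.89), which binds the cap-binding protein eIF4E and represses initiation. The proteasomal ubiquitin receptor RPN13 (1.94) and the Arp2/3 subunit ARC19 (1.12) complete the 33. These groups were formed after the loci were known, and no count of them was compared with the pool.

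Among the lower loci, OCA1, a putative protein tyrosine phosphatase, had the most negative mean. Its 21 nt leader had 186, 164 and 242 FPKM in the 80S libraries, 2429 and 2379 in the untranslated libraries and 2023 in the input. The 33 nt leader had 458, 331 and 331 in 80S, 5584 and 4507 untranslated and 1961 in the input. The 67 nt leader had 1535, 1441 and 1692 in 80S, 9498 and 8025 untranslated and 7032 in the input. Replicates were close in both fractions, and the untranslated libraries lay above the input for each leader. The log2 differences were -3.62 ± 0.25, -3.76 ± 0.24 and -2.49 ± 0.18 for the 21, 33 and 67 nt leaders, so the longest leader was nearest to even.

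YBR287W encodes an uncharacterized protein. Its 33 nt leader had 3590.2, 3043 and 4053 FPKM in 80S and 12276 and 10352 untranslated, and its 77 nt leader 1636, 2032 and 2237 in 80S against 9635 and 14207. The 61 nt leader had 1169, 1339.6 and 1083 in 80S and 17250.2 and 26143 untranslated, the most negative difference of all 174 RNAs. The 3 log2 differences were -1.67 ± 0.19, -4.15 ± 0.22 and -2.58 ± 0.23 for the 33, 61 and 77 nt leaders. ARO7, chorismate mutase of phenylalanine and tyrosine synthesis, had an outlying middle leader in the opposite sense. The 59 nt leader was at 4644, 6721 and 4838 FPKM in 80S and 13295 and 17800.2 untranslated. The 32 nt leader was at 1208, 1415 and 1491 in 80S against 14860.1 and 20762, and the 75 nt leader at 2051, 2818 and 2103 against 19606 and 22022. The 80S level of the 59 nt leader was the highest of the 3, and the log2 differences were -3.68 ± 0.21, -1.53 ± 0.22 and -3.18 ± 0.20 for the 32, 59 and 75 nt leaders.

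ATO3, a putative ammonium transporter, had log2 differences of -3.05 ± 0.23, -2.98 ± 0.23 and -2.13 ± 0.22 for the 54, 69 and 85 nt leaders, with 344 ± 58.2 FPKM in 80S and 2827 ± 126 untranslated for the shortest. MED2, a subunit of the Mediator complex of RNA polymerase II, had -2.16 ± 0.20, -3.27 ± 0.19 and -2.31 ± 0.19 for the 24, 38 and 56 nt leaders. Its 80S level was 738 ± 53.6, 815 ± 26.1 and 1240.2 ± 41.3 FPKM by rising length, and its untranslated level was 3296 ± 286, 7895 ± 1163 and 6198 ± 964. TCM62, needed for assembly of mitochondrial succinate dehydrogenase, had log2 differences of -1.96 ± 0.23, -3.70 ± 0.27 and -1.91 ± 0.16 for the 33, 54 and 83 nt leaders, with the middle leader the lowest. TAT2, a permease for tryptophan and tyrosine, had -3.02 ± 0.17, -1.98 ± 0.24 and -2.40 ± 0.18 for the 66, 83 and 101 nt leaders, and its 66 nt leader reached 26558 ± 4066 FPKM untranslated against 3264 ± 224 in 80S. CMP2, a catalytic subunit of calcineurin, had -3.85 ± 0.25, -1.35 ± 0.25 and -2.07 ± 0.26 for the 65, 83 and 103 nt leaders. The 65 nt leader of CMP2 was at 123 ± 19.5 FPKM in 80S and 1776 ± 205 untranslated.

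Other lower loci are given with the mean of their 3 log2 differences. Membrane transport and import were represented by the siderophore transporter SIT1 (-2.21), the peroxisomal fatty acid transporter PXA1 (-1.64), the mitochondrial import subunit TOM5 (-1.69) and the nucleoporin NUP53 (-1.62). Factors acting on RNA were ribonuclease III RNT1 (-1.97), the RNA-binding protein SGN1 (-1.75), USB1 of U6 RNA 3′-end processing (-1.55) and the pre-rRNA endonuclease RCL1 (-1.27). Factors acting on DNA or chromatin were the telobox-binding TBF1 (-1.96), NET1 of the nucleolar RENT complex (-1.73) and the forkhead factor HCM1 (-1.61). Also lower were the lipase YPR147C (-2.04), the septum chitin synthase CHS2 (-1.91), PER33 of the endoplasmic reticulum (-1.73), REE1 (-1.69), which acts on enolase expression, and the uncharacterized YNL146W (-1.30).

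At the edge of the rule, the member nearest 1 was RPN13 at 1.01, followed by ATP17 at 1.01, and the nearest loci left out were CCT3 at 0.98 and VPS5 at 0.95. On the lower side RCL1 (-1.03) was just inside, and ALE2 (-0.998) and GSP1 (-0.99) just outside. These values lie closer together than the standard errors of single RNAs, such as 0.25 for the 20 nt leader of RCL1. When each 80S library was set against each untranslated library, 10 of the 33 higher loci and 8 of the 25 lower loci kept all 3 leaders past the mark in every pair. The 10 higher loci were ATP3, KNH1, DIN7, YDR415C, PHB1, MNS1, TUB4, BET5, ZDS2 and ARP7, and the 8 lower loci were TCM62, YBR287W, HCM1, MED2, ATO3, PER33, OCA1 and TAT2. When libraries were left out 1 at a time, 15 higher and 17 lower loci stayed on their side throughout. In all, 24 higher and 9 lower RNAs fell short of the mark without some library.

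Leaving out either untranslated library moved 7 of the 174 RNAs by more than 1.5-fold, and leaving out an 80S library moved none by that much. Beside the short leaders of YNR048W and YDR415C, these were the 25 nt leader of SGM1, with 1394 and 398 FPKM in the untranslated libraries, and the 41 nt leader of RPC82, with 1390.1 and 506. The SGM1 value was 1.25 with all libraries, 2.15 without untranslated replicate 1 and 0.34 without untranslated replicate 2, and the RPC82 values were 1.21, 1.94 and 0.48 in the same order. For the 65 nt leader of ARO80 they were 1.85, 2.52 and 1.19. In the lower set the 20 nt leader of SIT1 gave -1.52, -0.84 and -2.20, and the 57 nt leader of NET1 gave -1.61, -0.05 and -3.18. The NET1 leader had 260.4, 169.6 and 329 FPKM in 80S and 2216 and 253 untranslated, so its place in the set rested on untranslated replicate 1.

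How often the leaders of a gene fell on 1 side can be set beside the pool. Of the 1683 RNAs of 3-RNA loci, 467 (27.7%) stood at 1 or more and 416 (24.7%) at -1 or less. All 3 RNAs were past the mark together in 5.88% of these loci on the higher side and 4.46% on the lower side. Among 1328 loci with 2 RNAs, both were higher in 137 (10.3%) and both lower in 108 (8.13%), and among 100 loci with 4 RNAs all were higher in 4 and all lower in 1. Of the other 503 loci with 3 RNAs, 107 held leaders past the mark in both directions, 74 had 2 leaders higher and 1 between, 65 had 2 lower and 1 between, and 69 had no leader past it. The remaining loci had 1 leader past the mark, higher in 98 and lower in 90. Across all 561 loci, Pearson's r of the log2 difference was 0.27 between the shortest and middle leader, 0.33 between the middle and longest, and 0.21 between the shortest and longest. The input level gave r of 0.22, 0.13 and 0.18 for the same pairs. The leaders compared share libraries and their 3′ sequence, and how reads common to nested RNAs were assigned is not given in the sources used here. Whether such reads drew the values of nested leaders together was not tested.

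Even within these loci the leaders were not alike. The highest minus the lowest of the 3 log2 differences, called the spread here, had a median of 1.06 in the higher loci (0.17 to 2.18) and 1.08 in the lower loci (0.37 to 2.50). It was 1 or more, that is 2-fold, in 17 of 33 higher and 16 of 25 lower loci. The other 3-RNA loci had a median spread of 2.02, a contrast that the rule itself favours. The most even higher loci were ARO80, FMP23 and ARC19, each with a spread of 0.17, which is below the standard errors of their single RNAs. With libraries left out 1 at a time, ARO80 kept all 3 leaders past the mark in 5 of 5 cases. FMP23 did so in 1 of 5 and ARC19 in 2 of 5. ARO80 activates genes of aromatic amino acid breakdown, and its log2 differences were 1.85 ± 0.36, 1.76 ± 0.28 and 1.69 ± 0.28 for the 65, 79 and 90 nt leaders. Its levels were far from even, with 23708 ± 4773, 8606 ± 1205 and 16214 ± 1891 FPKM in 80S against 7166 ± 4376, 2661 ± 1213 and 5320.4 ± 2521 untranslated, by rising length. The 3 leaders of FMP23 had 80S levels of 1077 ± 206, 13362 ± 2219 and 1403 ± 45 FPKM and log2 differences of 1.12 ± 0.32, 1.04 ± 0.25 and 1.21 ± 0.21 for the 20, 53 and 83 nt leaders. Those of ARC19, part of the actin-nucleating Arp2/3 complex, were 1.08 ± 0.24, 1.23 ± 0.29 and 1.06 ± 0.23 for the 15, 27 and 45 nt leaders. In ARO80, FMP23 and ARC19 the most and least abundant of the 3 leaders thus differed by more than 2-fold in 80S. Their input levels were uneven too, with the highest 3.19-fold, 8.40-fold and 5.91-fold above the lowest. That these leaders differed little in how they split between fractions restates the small spread for which they were named.

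Among the lower loci the most even were RCL1 (spread 0.37), REE1 (0.46) and YNL146W (0.64), with PXA1 at the same rounded value as YNL146W. The log2 differences of RCL1 were -1.03 ± 0.25, -1.39 ± 0.24 and -1.40 ± 0.27 for the 20, 39 and 55 nt leaders, and those of REE1 were -1.94 ± 0.25, -1.64 ± 0.20 and -1.48 ± 0.25 for the 43, 87 and 101 nt leaders. At the other end, the largest spreads of the higher loci were those of YNR048W (2.18), MRPS16 (2.06) and YPS7 (2.06). MRPS16, a protein of the small mitochondrial ribosomal subunit, had log2 differences of 3.14 ± 0.30, 1.24 ± 0.18 and 1.08 ± 0.20 for the 27, 42 and 56 nt leaders. Its 27 nt leader was at 328 ± 127 FPKM untranslated, against 1767 ± 45.1 and 1209 ± 160.5 for the longer leaders. These untranslated levels were not set against the input, where the MRPS16 leaders differed by up to 3.75-fold. In the lower loci the largest spreads were those of CMP2 (2.50), YBR287W (2.48) and RNT1 (2.38). RNT1 is the ribonuclease III of rRNA and small RNA processing. Its log2 differences were -1.10 ± 0.26, -1.33 ± 0.22 and -3.48 ± 0.21 for the 50, 78 and 93 nt leaders. The longest leader was at 12805 ± 2774 FPKM untranslated, and the input levels of the 3 leaders differed by up to 3.82-fold.

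Since nested leaders differ by the bases added at the 5′ end, the stretches that came with the largest step are shown for the 6 loci of widest spread just named and for ARO7, each 5′ to 3′ in R64 on the coding strand. No base of this set is in capitals, since none of the stretches holds an ATG.
YNR048W 27 to 55 nt: aatcaatagttaacatctagaataaagt
YPS7 69 to 94 nt: attagactaatcgttctagaaggat
MRPS16 27 to 42 nt: gactggtattccgtt
CMP2 65 to 83 nt: aattgctacgatacaaac
YBR287W 33 to 61 nt: gtttttggtttgttattcccaactaacc
ARO7 32 to 59 nt: atcgattccgttttgctaacaaatagc
RNT1 78 to 93 nt: actctcaggagaatc
With the stretch of YNR048W the log2 difference was higher by 2.12, and with that of YPS7 by 2.06. With that of MRPS16 it changed by -1.90. In the lower loci the CMP2 and ARO7 stretches came with values higher by 2.50 and 2.15, and the YBR287W and RNT1 stretches with changes of -2.48 and -2.15. Steps of this size thus occurred in both directions between leaders that, with all libraries, stood on 1 side of the mark. As for YNR048W and YPS7 above, this depended on single libraries in MRPS16 and RNT1. A leader of MRPS16 fell short of the mark without untranslated replicate 1. For RNT1 this happened without 80S replicate 3 and without untranslated replicate 2. By contrast, adding the 12 nt stretch that took YNR048W from 55 to 67 nt changed the value by 0.05, and adding 11 nt to the 79 nt leader of ARO80 changed it by -0.08.

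Leader length gave no common order within the loci. In the higher loci the difference rose with length in 8, fell in 4, was highest in the middle leader in 12 and lowest there in 9. The lower loci had 5, 4, 7 and 9 in the same order. The longest leader stood above the shortest in 20 of 33 higher and 13 of 25 lower loci, and the median of the longest minus the shortest was 0.09 and 0.05 on the log2 scale. In the other 3-RNA loci the longest stood above the shortest in 231 of 503, with a median of -0.25. The median length gap from shortest to longest was 35 nt (22 to 70) in the higher and 38 nt (22 to 68) in the lower loci.

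Against the input, which was not part of the rule, both fractions can be placed, although each comparison shares its fraction with the rule and there was 1 input library. Calls were made by limma across all 6962 RNAs at a Benjamini-Hochberg adjusted p under 0.05, with the input assumed to vary like the replicated fractions. In 80S, 31 of the 99 RNAs of higher loci were called higher than the input and 5 lower, where the pool had 20.1% higher and 33.2% lower. In the untranslated fraction 70 of these 99 were called lower than the input and 1 higher, where the pool had 34.4% lower and 17.4% higher. The median RNA of the higher loci stood 0.34 above the input in 80S and 1.56 below it in the untranslated fraction on the log2 scale, and the pool medians were -0.25 and -0.36. The rule used both fractions, so these shares describe the chosen RNAs and are not evidence about them.

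The lower loci were placed the other way round. In 80S, 53 of the 75 RNAs were called lower than the input and 2 higher, where the pool had 33.2% lower and 20.1% higher. In the untranslated fraction 34 were called higher and 5 lower, where the pool had 17.4% higher and 34.4% lower. Here too the rule used both fractions, so the shares only describe the chosen RNAs. The medians of these RNAs were -1.51 in 80S and 0.66 in the untranslated fraction. The 2 RNAs called higher in 80S than in the input were the 89 nt leader of HCM1, at 1.36, and the 69 nt leader of USB1, at 0.79, and both stood still higher in the untranslated fraction, at 2.70 and 1.97. The input lay between the fractions for all 3 leaders in 9 of 33 higher and 12 of 25 lower loci. In the other 3-RNA loci it did so in 28 of 503. Both fractions lay below the input for 35 of 99 higher and 16 of 75 lower RNAs, and both above it for 9 and 6. Of the 1509 RNAs of the other loci, 589 lay below the input in both fractions and 331 above it in both. A rule that sets the fractions at least 2-fold apart favours an input between them.

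The higher locus that stood furthest above the input in both fractions was YNR048W, whose mean over 3 leaders was 3.15 in 80S and 0.41 in the untranslated fraction. PMI40, which supplies mannose-6-phosphate for glycosylation, followed at 1.40 and 0.07. COA6 stood furthest below the input in 80S, at -1.07, with -3.10 in the untranslated fraction. ENT4 followed at -0.70 and -2.72, and then YPS7 at -0.70 and -3.14, the lowest higher locus in the untranslated fraction. In the lower set SIT1, which takes up iron bound to siderophores, was at -3.53 in 80S and -1.31 untranslated, and NET1 at -3.06 and -1.33. All 3 leaders of NET1 were scarcer than in the input in both fractions, and so were those of SIT1, except its 31 nt leader at 0.10 in the untranslated fraction. The lower loci nearest the input in 80S were USB1 (-0.13) and HCM1 (-0.17), which stood at 1.42 and 1.44 in the untranslated fraction. Input levels within a locus were uneven: the most abundant of the 3 leaders exceeded the least by a median of 3.75-fold in the higher loci (1.13 to 18.6) and 3.82-fold in the lower loci (1.20 to 17.4). No member was near the lowest input value of the pool, 23.9 FPKM, since the lowest of the higher loci was 239.1 and that of the lower loci 203.1.

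Features of the sequence that the rule did not use are given per locus where nothing else is said, since nested leaders repeat each other. Sequences were found for all 58 loci, for 500 of the other 3-RNA loci and for 6860 of 6962 RNAs. The longest leader had a median of 65 nt in the higher loci, 79 nt in the lower loci and 73.5 nt in the other 3-RNA loci. The median GC content of the longest leader was 31.5% in the higher loci, 36.8% in the lower loci and 34.6% in the others, and its median share of A was 40.4%, 35.6% and 39.1%. By length, where a locus can count more than once, the median GC content was 32.8% over 30 higher, 37.6% over 33 lower and 34.6% over 569 other leaders of 61 nt or more, and 30.4%, 34.4% and 34.0% over 45, 31 and 611 leaders of 31 to 60 nt. Among leaders of at most 30 nt the higher and lower sets stood the other way round, at 33.3% over 24 and 30.8% over 11 leaders, with 33.3% over 320 others. The predicted folding energy, computed with RNAfold on the leader alone, had a median of -7.4 kcal/mol for the longest leader of the higher loci, -6.8 for that of the lower loci and -7.5 for the others. Over all leaders the medians were -2.9, -3.7 and -3.7 kcal/mol, so the higher and lower sets changed order. By length they were -10.1, -6.8 and -8.5 at 61 nt or more, -2.6, -2.5 and -2.9 at 31 to 60 nt, and 0 in each set at 30 nt or less. Folding energy thus gave no one order of the sets across lengths. A GGG was held by the longest leader in 8 of 33 higher loci (24.2%), 2 of 25 lower loci (8.0%) and 120 of 500 other loci (24.0%). By length, 6 of 30 higher, 4 of 33 lower and 164 of 569 other leaders of 61 nt or more held one. At 31 to 60 nt it was 8 of 45, 0 of 31 and 72 of 611. At 30 nt or less it was 3 of 24, 0 of 11 and 12 of 320. Only at 61 nt or more did the higher set lie below the others. TTTTT was held by the longest leader in 4 of 33, 5 of 25 and 78 of 500 loci, and AAAAA in 12, 7 and 179.

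The base at position -3 from the start codon is the same for the 3 leaders of a locus. It was A in 15 of 33 higher loci (45.5%), in 11 of 25 lower loci (44.0%) and in 310 of 500 other 3-RNA loci (62.0%). It was A or G in 75.8%, 76.0% and 81.0%. Both directions therefore had the lower share of A. Across the pool 62.6% of RNAs had A there. As read from R64, the first base of the shortest leader was A in 84.8% of higher, 84.0% of lower and 82.2% of other loci. The genomic base before it was a pyrimidine in 97.0% of higher, all 25 lower and 96.2% of other loci. With 33 and 25 loci these shares rest on few genes, and none of them was tested.

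An ATG within the leader was absent from all 3 leaders in 25 of 33 higher, 21 of 25 lower and 366 of 500 other 3-RNA loci. All 3 leaders held one in 3 higher loci (TAD3, ARO80 and SGM1) and 2 lower loci (TCM62 and PXA1). Because the leaders are nested, all 3 carry the ATG of the shortest leader, shown here in capitals with up to 8 bases on each side.
TAD3: aatattcATGagggcgtg
ARO80: gggaatatATGatccacgc
SGM1: ATGgtagtggt
TCM62: actctcttATGctttaacg
PXA1: aacaATGaaacccgt
The ATG lay 17 bases before the start codon in TAD3, 46 in ARO80, 25 in SGM1, 14 in TCM62 and 50 in PXA1, and was out of frame with it in each. In SGM1 it was formed by the first bases of the 25 nt leader as read from R64. The deposited table holds no RNA sequences, so any base added at the 5′ end of the RNA would not be seen. TAD3, which pairs with TAD2 to deaminate tRNA adenosine, had 8119, 5820.1 and 5423 FPKM in 80S and 979.8 and 1135 untranslated for its 24 nt leader. Its log2 differences were 2.59 ± 0.22, 1.09 ± 0.19 and 2.59 ± 0.23 for the 24, 46 and 60 nt leaders. Those of PXA1 were -1.25 ± 0.23, -1.88 ± 0.24 and -1.80 ± 0.20 for the 54, 85 and 115 nt leaders. Loci with an ATG in every leader thus occurred in both directions, at shares near that of the other 3-RNA loci. They were 3 of 33 higher (9.1%), 2 of 25 lower (8.0%) and 39 of 500 other loci (7.8%). The 46 nt leader of TAD3 fell short of the mark without untranslated replicate 2, at 0.84. SGM1 did not keep all 3 leaders past the mark when either untranslated library was left out.

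Where a longer leader held more ATGs than the next shorter one, the step in the log2 difference went both ways. In the higher loci 6 such steps had a median of 0.39, with 4 up and 2 down, and in the lower loci 3 steps had a median of -0.23, with 1 up and 2 down. Steps that added no ATG had medians of 0.09 (60 steps) and 0.07 (47 steps), and in the other 3-RNA loci 121 steps with an added ATG had a median of -0.07 against -0.02 for 879 without. Added stretches with an ATG, in capitals, are shown for 3 of the loci with the largest means.
TUB4 15 to 35 nt: agtcacATGtataagaattc
TUB4 35 to 53 nt: aaATGcgtaatatcggtt
DIN7 77 to 99 nt: aatcatatttATGggcttaata
YBR287W 61 to 77 nt: aatATGtgtgaagccc
With the first TUB4 stretch the value was higher by 0.62 and with the second it changed by -0.40, between leaders that all stayed above 2. The DIN7 stretch came with a step of 1.08 and the YBR287W stretch with a step of 1.57. The 99 nt leader of DIN7 held 2 ATGs and its 77 nt leader none. The unmarked ATG spans the junction between the added stretch and the 77 nt leader. The 80S fraction records that an RNA was bound by a ribosome and not the codon at which the ribosome stood.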

How the data were processed

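The deposited table holds FPKM values per RNA for 6 libraries, computed by the authors. Per the submitters' processing notes cutadapt and STAR were used; their versions, the program behind the FPKM values, the genome build and the treatment of reads shared by nested RNAs were not given in the sources used here. FPKM scales each library to its own total, and whole reads could not be recovered, so depth is unknown and no counting interval is given.

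Values were analysed as log2(FPKM + 1) without a filter on low values. Differences understate change at low values because of the pseudocount of 1. Groups followed the labels (3 80S, 2 untranslated and 1 input library). Standard errors and calls came from limma 3.58.1 in R 4.3.3 with a mean-variance trend, fitted to all 6962 RNAs and 6 libraries with 3 residual degrees of freedom, and p-values were adjusted by Benjamini-Hochberg over all RNAs at 0.05; the fit was tested on simulated data. The members and lists were chosen with earlier results of these data known. Named loci were, per direction, the 8 with the largest mean difference, the 3 with the smallest and largest spread, the 2 nearest the mark on each side, the 2 with an ATG in every leader and the largest mean, and the 2 furthest above or below the input in both fractions; HCM1, USB1, SGM1, ENT4 at its overlap and the loci moved by 1 library were named after their values were seen. The values of 1 lower locus are not reported here, though it is part of the counts. Leaders were read from the RefSeq R64 assembly as the bases of the named length before the annotated coding start, folded with ViennaRNA 2.7.2, and placed for 6860 RNAs (98.5%). Gene roles follow RefSeq's notes. Alternatives were pseudocounts of 0.1 and 10, rescaling, a mean FPKM of at least 500, no trend, a replicate block and leaving out libraries.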

Additional observations from a re-analysis of the deposited data

How the results depend on the processing

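The counts of loci with all 3 leaders past the mark were 33 higher and 25 lower under pseudocounts of 0.1 and 10. With libraries left out 1 at a time they ran from 25 to 36 higher and from 24 to 27 lower. Rescaling by median ratios gave 20 higher and 35 lower loci, and a mark met by every pair of libraries gave 10 and 8. A mean FPKM of at least 500 gave 30 and 21. Of the 58 locus means, rescaling moved 4 by more than the spread between replicates, as did leaving out untranslated replicate 1 or 2 for 6 loci each, and none changed sign. Against the input, the 5 RNAs of higher loci called lower in 80S became 2 after rescaling and 2 to 12 with libraries left out, and the 2 of lower loci called higher became 1 with a replicate block and 1 to 2 with libraries left out. In the untranslated fraction, the 1 RNA of higher loci called higher became 4 after rescaling, 2 with the replicate block and 0 to 3 with libraries left out, and the 5 of lower loci called lower became 2, 3 and 3 to 10. The cause was not tested. The replicate block gave 2767 higher and 2256 lower RNAs between the fractions in place of 2689 and 2215. Replicates 1 and 2 of the fractions deviated together (r = 0.37 over 6962 RNAs), but with 2 shared numbers that the labels do not tie to a batch, this does not pair them. A count test was not run, since whole reads could not be recovered. With 2 untranslated libraries and 1 input, the errors rest on few libraries.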
